A study of Caenorhabditis elegans with 2 samples.

Results

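HLH-11 peaks were examined at the 85 Hedgehog-related and patched-related genes of Caenorhabditis elegans, out of 19973 protein-coding genes. The members are all protein-coding genes of the WBcel235 annotation whose symbols begin with wrt-, grd-, grl-, hog-, ptc- or ptr-, and qua-1. Membership was set by symbol, and these families were chosen with earlier results of these data known. They comprise 59 ligand-like genes (10 wrt, 16 grd, 31 grl, hog-1 and qua-1) and 26 patched-related genes (2 ptc and 24 ptr). HLH-11 belongs to the basic helix-loop-helix transcription factors, which bind E-boxes (CANNTG), and is related to AP-4 of mammals. The chromatin immunoprecipitation and sequencing data come from 1 group of 2 biological replicates of strain OP396, genotype unc-119(tm4063) III; wgIs396. This strain is a stable transgenic line with HLH-11 fused at its C-terminus to GFP and FLAG, and the fusion was recovered with an antibody against GFP. Both replicates were whole L4 larvae of mixed sex at 53 hours, started from L1 larvae starved after bleaching. There was no second condition, and a whole-animal sample does not resolve the tissue in which a peak arose.

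Hedgehog proteins are secreted signals of flies and vertebrates whose receptor is the membrane protein Patched. Nematodes have no true Hedgehog but many related secreted proteins, named warthog (wrt), groundhog (grd), ground-like (grl), hog and quahog (qua) after their amino-terminal domains, some of which also keep the autoprocessing Hog domain of Hedgehog. They have Patched homologues (ptc) and a large family of patched-related proteins (ptr) with sterol-sensing domains, while the signal transducer Smoothened of flies is missing. Many of these genes are expressed in the epidermis and other cells that line the outside of the animal, and several are needed for molting, for which the cuticle is rebuilt at each larval stage.

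A gene is called bound here when the summit of a peak in the authors' thresholded list lay in a start window, which reaches from 1000 bp before to 500 bp past an annotated start of the gene. That list holds 7863 peaks kept by an IDR (irreproducible discovery rate) threshold, which rests on how alike the replicates rank their peaks. They are the strongest 7863 peaks of the list from the pooled replicates, so a single kept peak can rank differently in the 2 replicates. Of the kept peaks, 78.6% ranked within the strongest 7863 of both replicates. Each peak carries a signal, a height given by the authors' caller, with a lowest value of 88.3, a median of 181 and a highest of 2943 in the thresholded list. Signals were used within a list only. The pooled list and each replicate's list hold 30000 peaks, weak ones included. Read depth is unknown, since the lists hold no read counts. No peak had the same start and end in the 2 replicate lists. This shows that the lists are not copies and does not measure their agreement, since peaks with nearby summits can differ in their edges.

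The share of bound genes was lower among ligand-like genes than among patched-related genes, which had a share near that of all protein-coding genes. HLH-11 peaks stood at 6 of 59 ligand-like genes (10.2%, 95% exact binomial interval 3.82 to 20.8) and at 6 of 26 patched-related genes (23.1%, interval 8.97 to 43.6), against 4247 of 19973 protein-coding genes (21.3%). Together 12 of 85 members were bound (14.1%, interval 7.51 to 23.4). The intervals of ligand-like and patched-related genes overlap between 8.97% and 20.8%. Such overlap does not decide whether the 2 classes differ, and their difference was not tested. The interval of ligand-like genes ends just under the 21.3% of all genes, and that of patched-related genes spans it. The intervals cover the counting of genes alone, and no test was made, because the members were chosen with results of these data known and the genes of 1 pair of libraries are not replicates. The cuticle collagens (symbols beginning col-), structural genes of the same epidermis, were bound at 28 of 156 (17.9%, interval 12.3 to 24.9).

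**Figure D1:**
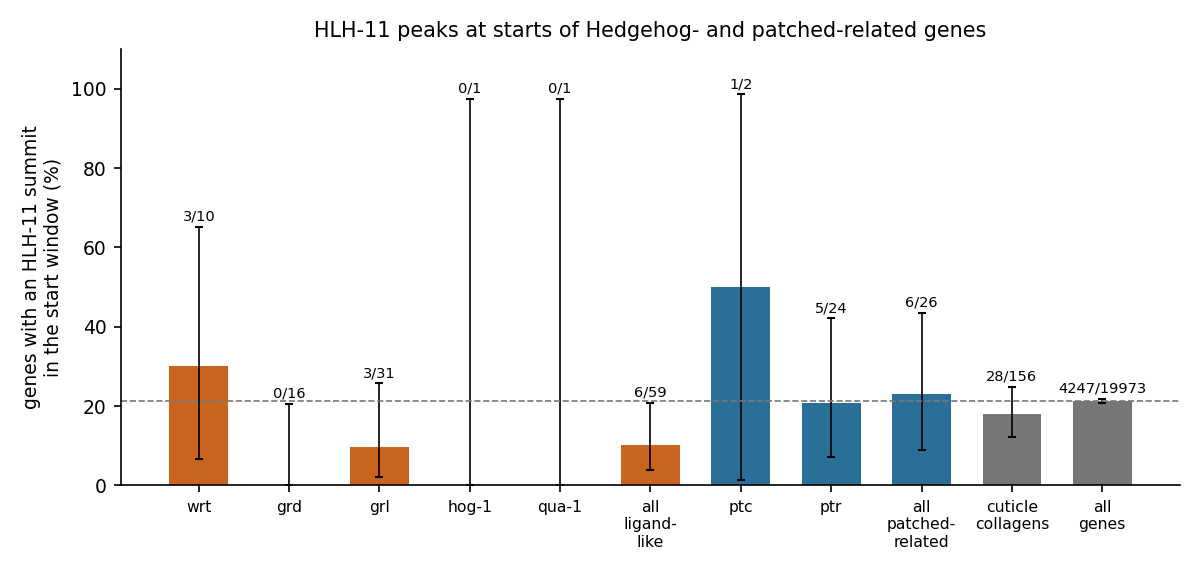
Share of genes with a thresholded HLH-11 summit from 1000 bp upstream to 500 bp downstream of a start (y axis, percent) for each ligand-like family (orange), each patched-related family (blue) and the comparison sets (grey). Error bars are 95% exact binomial intervals, numbers above them give bound and all genes, and the dashed line marks the 21.3% of all protein-coding genes: the 16 grd genes have no bound member, while 6 of 26 patched-related genes are bound.

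Within the ligand-like genes the warthog and ground-like families held every bound member, and the groundhog family held none. Of the wrt genes 3 of 10 were bound (30.0%, interval 6.67 to 65.2), namely wrt-1, wrt-2 and wrt-10. The grl genes had 3 of 31 (9.68%, interval 2.04 to 25.8), namely grl-5, grl-10 and grl-26. None of the 16 grd genes was bound (upper bound of the interval 20.6%), and neither was hog-1, which has the Hog domain without any of the other amino-terminal domains, nor qua-1, which is needed for molting. Among the receptors, ptc-1, which acts in germline cytokinesis, was bound and ptc-3, an essential gene with roles in molting, was not. The ptr family had 5 bound genes of 24 (20.8%, interval 7.13 to 42.2), namely ptr-2, ptr-6, ptr-14, ptr-18 and ptr-24.

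The peaks of bound members were weak ones. The 12 genes had 13 summits in their windows, ptr-24 having 2, with signals from 94.9 to 226 and a median of 147, against a median of 190 for the 4171 peaks in any start window. Of the 13 peaks 11 lay below the median of the thresholded list, and none was among its strongest 1965. The highest, at grl-26, ranked 2958. Signals of ligand-like peaks ran from 94.9 to 226 (median 152) and those of patched-related peaks from 98.9 to 224 (median 130), so the 2 classes overlapped over nearly their whole range. Of the 4171 start-window peaks, 1652 (39.6%, the grl-26 peak included) had at least the signal of the grl-26 peak. Low signals were not particular to these families. By the strongest signal of each bound gene, the median was 151 for members and 205 for all protein-coding genes. For the cuticle collagens it was lower, at 119, though their signals reached 402.

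**Figure D2:**
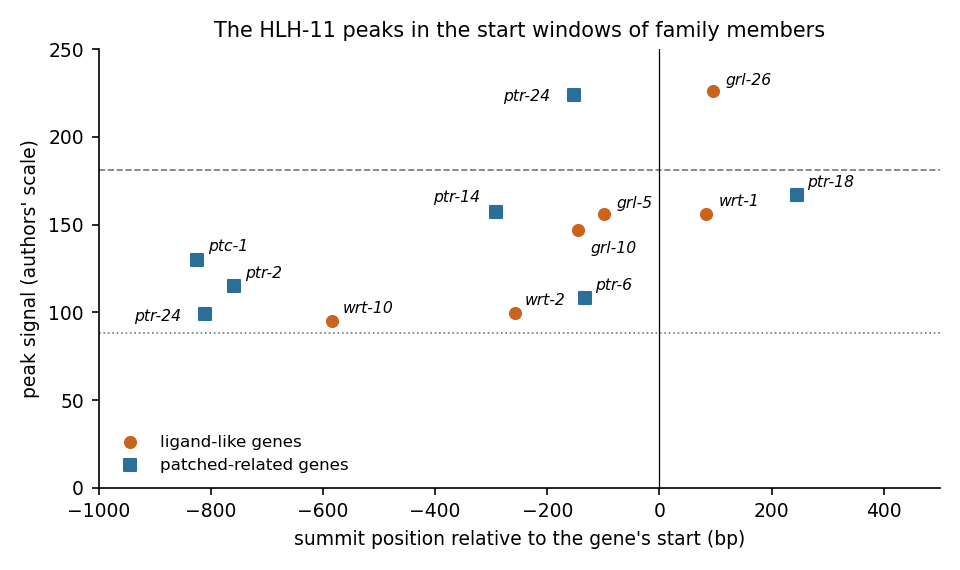
Signal (y axis, authors' scale) and position relative to the nearest start of the gene (x axis, bp) of the 13 thresholded summits in the windows of ligand-like (orange circles) and patched-related genes (blue squares). The dashed line marks the median of the thresholded list, 181, and the dotted line its lowest value, 88.3: only the peaks of grl-26 and ptr-24 (at 153 bp upstream) lie above the median.

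Among the ground-like genes the 3 peaks lay close to the starts. The grl-26 peak (chromosome IV, 322624 to 322750) had a signal of 226 and its summit 95 bp downstream of the start, in the 5' UTR. It ranked 3943 in replicate 1 and 2569 in replicate 2. At grl-5 the summit was 98 bp upstream (V, 4414549 to 4414972, signal 156), with ranks of 4613 and 5070 in replicates 1 and 2. The grl-10 summit was 146 bp upstream (V, 7774187 to 7774610, signal 147), with ranks of 5882 and 4534. All 3 peaks were thus placed in the thresholded range by each replicate alone. The grl-5 and grl-10 windows of 101 bases around the summit are printed from RefSeq on the strand of the gene, 5′ to 3′, build WBcel235 (ce11), to set an E-box beside a GA repeat. Capitals mark any E-box and, on either strand, the GA repeat searched as GAGAGA, the GATA-containing sequence TGATAA, the sequence CTTATC that contains GATA on the other strand, and the nuclear receptor half-site AGGTCA:
grl-5, chrV:4414711-4414811, minus strand: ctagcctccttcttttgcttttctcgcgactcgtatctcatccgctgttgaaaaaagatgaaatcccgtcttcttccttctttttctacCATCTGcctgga
grl-10, chrV:7774349-7774449, plus strand: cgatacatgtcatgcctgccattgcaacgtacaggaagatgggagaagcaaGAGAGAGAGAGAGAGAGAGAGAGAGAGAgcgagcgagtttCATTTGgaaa
The grl-10 summit lies at the edge of a run of GA repeats, with CATTTG beyond it, and the grl-5 window holds CATCTG.

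Warthog peaks were less uniform. The wrt-1 summit (II, 7530867 to 7531290, signal 156) lay 83 bp downstream of the start in the 5' UTR and ranked 4367 and 4932 in replicates 1 and 2. The wrt-2 summit (X, 3094395 to 3094818, signal 99.7) lay 258 bp upstream, with ranks of 8396 and 7586, so that replicate 1 alone would place it below the strongest 7863. WRT-10 is a ligand known from work on oocyte quality in ageing worms. Its peak (II, 7534934 to 7535357, signal 94.9) was the weakest of the 13, with ranks of 6182 and 11354, and its summit 583 bp upstream lay in the 5' UTR of the neighbouring gene ZK1290.13, 140 bp from the start of that gene. It was the single member peak shared with another gene. wrt-1 and wrt-10 lie next to each other on chromosome II, in convergent orientation, and were the only bound pair among the 6 places where members stand within 10000 bp of each other. The other 5 places, which include grd-13, grd-3 and grd-10 on IV and grl-28 to grl-31 on V, held 13 genes and no bound member. Of all protein-coding genes 21.3% were bound, with 18.1% on IV and 16.9% on V. Genes of 1 place are neighbours, so their calls are not independent, and neighbouring genes in general were not counted.

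Of the receptors, ptr-24 had the most HLH-11 peaks. PTR-24 is a patched-related receptor that has been tied to fat storage and mitochondrial dynamics in worms, with the ground-like protein GRL-21 as a proposed ligand. The grl-21 gene was unbound, with its nearest thresholded summit 2710 bp upstream (signal 98.6). The ptr-24 gene (X, 13338028 to 13348125) has annotated starts at 13338028 and 13342181. Of its peaks, 1 lay 810 bp upstream of the first start (signal 98.9), and 3 lay in the long first intron. Relative to the first start these intronic summits stood at 1406 bp (signal 266), 3133 bp (249) and 4000 bp (224), the last of them 153 bp upstream of the second start. The ranks in replicates 1 and 2 were 2726 and 2026 for the first intronic peak, 2586 and 2708 for the second, and 2888 and 3029 for the third. The upstream peak ranked 20335 in replicate 1 and 5213 in replicate 2, so that replicate 2 alone placed it among its strongest 7863. From 1000 bp upstream of the first start to the end of the gene, 4 thresholded summits is the highest count among the 85 members. At least as many were found for 169 of all protein-coding genes (0.846%). This share was not adjusted for gene length, and ptr-24 was picked as the highest of the members. A stronger peak (signal 418) lay beyond the gene, at 10543 bp from its first start.

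**Figure D3:**
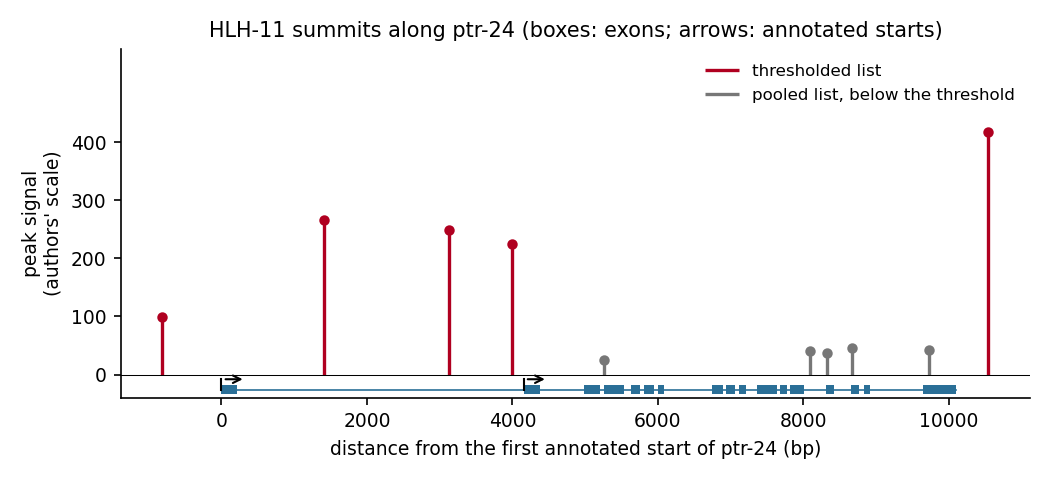
HLH-11 summits along ptr-24: height is the peak signal (y axis, authors' scale) and position the distance from the first annotated start (x axis, bp), in red for the thresholded list and grey for pooled peaks below it. Boxes are exons and arrows the annotated starts; of the thresholded summits 1 stands upstream, 3 in the first intron and 1, the highest (418), past the gene end, while the pooled summits over the later exons reach 46.4 at most.

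The sequences at the peaks of ptr-24 and of other receptors are shown because they carry different E-boxes and GATA sequences, with the same marking as above. The ptr-24 window at 1406 bp comes first and the window beside the second start after it, before the windows of ptr-6, ptr-14 and ptc-1:
ptr-24, chrX:13339384-13339484, plus strand: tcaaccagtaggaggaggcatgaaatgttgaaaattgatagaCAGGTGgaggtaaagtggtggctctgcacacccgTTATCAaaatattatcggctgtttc
ptr-24, chrX:13341978-13342078, plus strand: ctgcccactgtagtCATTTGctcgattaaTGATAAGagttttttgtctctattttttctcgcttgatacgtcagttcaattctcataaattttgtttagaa
ptr-6, chrII:5246920-5247020, minus strand: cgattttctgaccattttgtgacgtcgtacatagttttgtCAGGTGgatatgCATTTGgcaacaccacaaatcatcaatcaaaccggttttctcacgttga
ptr-14, chrIV:10615085-10615185, plus strand: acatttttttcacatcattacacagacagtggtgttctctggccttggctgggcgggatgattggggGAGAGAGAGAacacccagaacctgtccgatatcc
ptc-1, chrII:7892348-7892448, plus strand: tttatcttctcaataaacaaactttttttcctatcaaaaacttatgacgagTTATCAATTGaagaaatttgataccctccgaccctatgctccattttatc
CAGGTG is present at ptr-6 and at the ptr-24 summit at 1406 bp, where a GATA-containing sequence on the other strand lies near it. That ptr-24 summit lies outside the start windows. The same E-box, as CACCTG on the other strand, was also found at the peak of the ligand-like gene wrt-1. Its share over all start-window peaks was not counted. The window beside the second start of ptr-24 holds CATTTG and TGATAAG, in which the searches for TGATAA and CTTATC both found the same GATA. In the ptc-1 window an E-box overlaps with a GATA-containing sequence, and the ptr-14 window has a short GA repeat and no E-box.

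The remaining receptors were bound at different distances. The ptr-18 summit (II, 12965579 to 12966002, signal 167) was 245 bp downstream of the start in an intron, with ranks of 4015 and 4921 in replicates 1 and 2. ptr-18 is known for a part in keeping progenitor cells quiescent in arrested L1 larvae. The ptr-14 summit lay 292 bp upstream (IV, 10614923 to 10615346, signal 157), with ranks of 6678 and 3824. The ptr-6 summit lay 133 bp upstream (II, 5246758 to 5247181, signal 108), with ranks of 8738 and 5807. Those of ptc-1 (II, 7892347 to 7892474, signal 130) and ptr-2 (I, 3793343 to 3793766, signal 115) were farther off, at 824 and 758 bp upstream. The ptc-1 peak ranked 6769 and 4529 and the ptr-2 peak 6368 and 6588 in replicates 1 and 2. Over all 13 peaks, 10 were upstream and 3 downstream of the start, and 9 were within 300 bp of it. The window itself reaches farther upstream (1000 bp) than downstream (500 bp), and these counts have no share of all genes beside them. The median distance was 245 bp, against 247 bp for all pairs of a gene and a peak in its window.

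Each of the 13 peaks had a summit within 100 bp in both replicates' lists of 30000. Within the strongest 7863 peaks of each replicate, 10 were found in replicate 1, 12 in replicate 2 and 9 in both (69.2%). The share in both was 78.6% of all thresholded peaks and 74.3% of the 2314 start-window peaks in the signal range of the members, so the members stood near it. The exceptions were wrt-2, ptr-6 and the upstream ptr-24 peak in replicate 1 and wrt-10 in replicate 2. When the strongest 7863 peaks of 1 replicate alone defined binding, replicate 1 gave 6 ligand-like and 6 patched-related genes (21.9% of all genes bound) and replicate 2 gave 6 and 7 (20.8% of all genes). Of the 12 bound members 10 and 11 were bound again in these counts. Replicate 1 lost wrt-2 and ptr-6 and added ptr-21 and wrt-3, while replicate 2 lost wrt-10 and added grl-16 and ptr-22. The ptr-21 summit of replicate 1 ranked 5567 there and 20866 in replicate 2. The wrt-3 summit of replicate 1 (rank 5873, 218 bp upstream) had no partner within 100 bp in replicate 2 or in the pooled list.

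**Figure D4:**
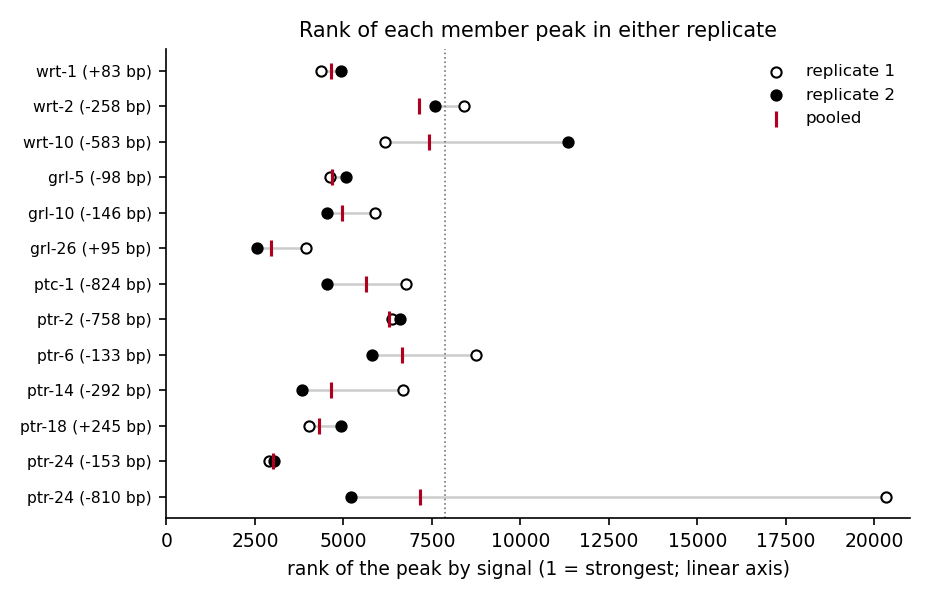
Rank by signal (x axis, 1 is strongest) of the 13 peaks in replicate 1 (open circles), replicate 2 (filled circles) and the pooled list (red ticks), 1 line per peak with the distance to the start in brackets. The dotted line marks rank 7863: 4 peaks have 1 of their replicates beyond it, the farthest being the upstream ptr-24 peak at rank 20335 in replicate 1.

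Ligand-like genes stood below all genes at every length of the peak list that was counted, and patched-related genes did so up to 6000 peaks. At 5000 peaks the shares were 6.78% of ligand-like and 11.5% of patched-related genes, against 15.1% of all genes. At 6000 peaks they were 6.78% and 15.4%, against 17.4%, and at 7000 peaks 6.78% and 23.1%, against 19.4%. Among the strongest 2000 pooled peaks no member had a summit in its window, against 6.60% of all protein-coding genes. The strongest 3931 peaks reached 1 ligand-like gene, grl-26, and 1 patched-related gene, ptr-24, and 12.4% of all genes. Over all 30000 pooled peaks 17 ligand-like genes (28.8%, interval 17.8 to 42.1) and 12 patched-related genes (46.2%, interval 26.6 to 66.6) had a summit in the window, against 40.6% of all genes. At 10000 peaks the shares were 11.9% of ligand-like and 30.8% of patched-related genes, against 24.8% of all genes, and at 20000 they were 25.4% and 34.6%, against 34.6%. In the whole pooled list 42 ligand-like and 14 patched-related genes had no summit in the window. Nearest to the threshold from below were grl-16 (signal 84.0, rank 8206), ptr-21 (80.7, rank 8472) and ptr-22 (78.5, rank 8642), and nearest from above were wrt-10 (94.9) and wrt-2 (99.7). The single hog gene had a pooled summit 13 bp downstream of a start with a signal of 57.8, and of the grd genes grd-5 (42.8) and grd-2 (41.2) alone had any.

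**Figure D5:**
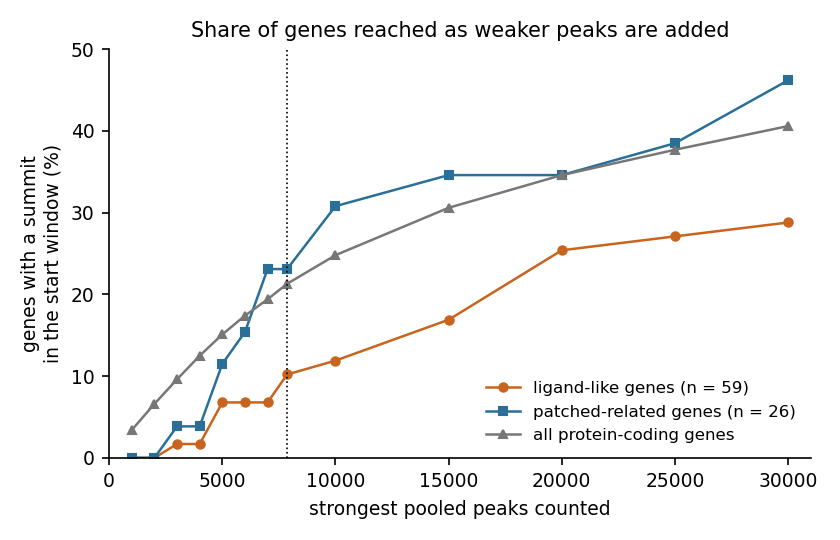
Share of genes with a summit in the start window (y axis, percent) as the number of strongest pooled peaks counted grows (x axis), for ligand-like genes (orange circles), patched-related genes (blue squares) and all protein-coding genes (grey triangles). The dotted line marks the 7863 thresholded peaks, where the shares are 10.2%, 23.1% and 21.3%; ligand-like genes are below all genes at every number plotted, and patched-related genes up to 6000.

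A wider search added 5 members at starts. With 2000 bp upstream, 10 ligand-like and 7 patched-related genes had a thresholded summit, against 26.7% of all genes. The additions were grd-5 (1067 bp upstream, signal 102), grd-6 (1242 bp, 109), wrt-9 (1291 bp, 107), ptr-16 (1405 bp, 112) and grl-17 (1468 bp, 973). The strong peak at grl-17 (V, 13565181 to 13565632, rank 198) lay nearer to another gene, 454 bp from the start of slrp-1. Likewise a peak with a signal of 1284 (II, 7529005 to 7529580, rank 84) stood 1721 bp upstream of the bound gene wrt-1 but 368 bp from the start of ZK1290.5. For the unbound gene wrt-5, a peak (signal 671, rank 468) lay 877 bp downstream of a start, outside the gene body. Inside genes, unbound members with thresholded summits were grl-3, grl-15, wrt-9, ptr-4, ptr-12 and ptr-13. The grl-3 peak was intronic (831 bp from the start, signal 315), and that of ptr-12 with a signal of 478 lay in its 3' UTR, 1517 bp from the start of fbp-1. A further ptr-12 summit (205) had no partner within 100 bp in replicate 2. The other intronic peaks of unbound members had signals from 106 to 167. Counting the window, the gene body and 2000 bp upstream together, 12 ligand-like genes (20.3%) and 10 patched-related genes (38.5%) had a thresholded summit, against 28.8% of all genes. The remaining 47 ligand-like and 16 patched-related genes had none.

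Ligand-like and patched-related genes also differed in their chromosomes, their number of starts and the space before them. Chromosome V, where 16.9% of all genes were bound, the lowest share of the 6 chromosomes, held 28 of 59 ligand-like genes (2 bound) and 4 of 26 patched-related genes (none bound). Weighting the share of all genes by the chromosomes of the members gave 20% for ligand-like and 22.0% for patched-related genes, and both values lie inside the intervals of the measured shares. More than 1 annotated start, which gives a gene more windows, was found for 7 ligand-like genes (11.9%) and 10 patched-related genes (38.5%), against 26.3% of all genes. Of genes with a single start, 6 of 52 ligand-like genes (11.5%) and 4 of 16 patched-related genes (25%) were bound, against 16.7% of all such genes. Of genes with several starts, 0 of 7 ligand-like and 2 of 10 patched-related genes were bound, against 34.0% of all such genes. With the most upstream start alone, the same 6 ligand-like and 6 patched-related genes were bound, against 19.7% of all genes. The median space to the next protein-coding gene upstream was 1078 bp for ligand-like and 5175 bp for patched-related genes, against 936 bp for all genes. The part of these features in the difference between the shares was not tested.

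E-boxes of some kind were present at most member peaks, but CAGCTG, the E-box known for AP-4, and CACGTG, that of Myc and Max, were not. Within 50 bp of the summit, 9 of 13 member peaks (69.2%, interval 38.6 to 90.9) had any CANNTG, against 43.4% of all start-window peaks. They comprised 4 of 6 ligand-like and 5 of 7 patched-related peaks. CAGCTG was present at none of the 13 and at 4.60% of all start-window peaks. The same held for CACGTG (5.61% of all) and for CACATG (7.24% of all). The interval of 0 of 13 peaks reaches 24.7%, so a shortfall from these shares was not detectable in 13 peaks. TGATAA or CTTATC, which contain GATA, was found at 3 of 13 peaks (23.1%), those of wrt-10, ptc-1 and ptr-24, against 27.6%. GAGAGA was found at wrt-10, grl-10 and ptr-14 (23.1%), against 23.8%. AGGTCA was found at the wrt-1 peak alone, against 3.67% of all start-window peaks. All sequences were searched on both strands, and CTTATC and TGATAA can overlap.

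The promoters of all 85 members, bound or not, were searched from 250 bases before to 50 after the most upstream start. Any CANNTG was found at 43 of 59 ligand-like promoters (72.9%) and 19 of 26 patched-related promoters (73.1%), against 69.4% of all protein-coding genes. CAGCTG was found at grd-7 alone, against 5.53% of all genes, and CACGTG at grl-6 and ptr-19, against 5.83%. None of these 3 genes was bound, against 21.3% of all genes, and 3 genes are too few to show a shortfall. The bound share of all genes with these sequences in their promoters was not counted. AGGTCA was present in 11.9% of ligand-like and 19.2% of patched-related promoters, against 8.23% of all genes. CACATG was present in 6.78% of ligand-like and 23.1% of patched-related promoters, against 9.97% of all genes. The GATA-containing sequences differed in direction: TGATAA was present in 18.6% of ligand-like and 15.4% of patched-related promoters, against 30.2% of all genes, and CTTATC in 23.7% and 15.4%, against 16.7%. Either of them was present in 28.8% of ligand-like and 26.9% of patched-related promoters, against 35.8% of all genes. GAGAGA was present in 22.0% of ligand-like and 26.9% of patched-related promoters, against 21.8%.

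Other genes of the pathway and of the molting epidermis were described in the same way, beside the 21.3% of all genes that were bound. All 3 lists are short, and the intervals of their shares are wide. Of 10 genes for Dispatched-like proteins, Hedgehog acyltransferase homologues, other sterol-sensing proteins and the Gli-type factor TRA-1, 3 were bound (30.0%, interval 6.67 to 65.2): hmgr-1, for HMG-CoA reductase (signal 277), ncr-1, for a Niemann-Pick C1 homologue (227), and tra-1 (211). The unbound ones were ptd-2, che-14, hhat-1, hhat-2, daf-6, ncr-2 and scp-1, so neither Dispatched-like gene and neither acyltransferase homologue was bound. Of 9 regulators of the epidermis and of molting 5 were bound (55.6%, interval 21.2 to 86.3), led by the membrane-bound factor myrf-1 (signal 1161, rank 118), the Period homologue lin-42 (474), blmp-1 (213) and the nuclear receptor nhr-23 (135), with nhr-25 at 92.1. The unbound regulators were grh-1, elt-1, elt-3 and lin-29. Of 9 molting and apical matrix genes, noah-1 (95.6) and noah-2 (95.1), which encode zona pellucida proteins of the apical matrix, were bound (22.2%, interval 2.81 to 60). The other 7, mlt-10, mlt-11, bli-5, fbn-1, lrp-1, nekl-2 and nekl-3, were not. The strongest signals at the starts of hmgr-1, ncr-1, myrf-1 and lin-42 exceeded every signal in the start windows of the 85 members. The margin of ncr-1 was small, 227 against 226 at grl-26. Of all bound protein-coding genes, 44.6% had a strongest signal at or above that of grl-26, so such signals are common.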

How the data were processed

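HLH-11 chromatin immunoprecipitation was sequenced from 2 biological replicates of whole L4 larvae, with chromatin sheared to 200 to 800 bp per the labels. Peak lists on build ce11 were deposited per replicate, for the pooled replicates and after IDR thresholding. The authors' caller gave each deposited peak a signal and a −log10 q value, of which the second was not used. The aligner and the peak caller were not given in the sources used here. The control was not analysed here. Every one of the 7863 thresholded peaks was found in the pooled list.

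Summits are the peak start plus the deposited offset. Genes and starts came from Ensembl release 115, sequence from RefSeq WBcel235; no peak passes a chromosome end. Many worm messages are trans-spliced, so an annotated start can lie downstream of the site of initiation. The symbols of 3 pseudogenes were not counted. Bound members were all named, with every peak in their windows. Window calls were checked on planted summits. Intervals are exact binomial (scipy 1.17.1, Python 3.11.15). Summits within 100 bp were matched between lists. The members, the gene lists and the motifs were chosen with earlier results of these data known, and no enrichment test was made. Alternatives were the promoter window, the peak list, the starts counted, the summit or midpoint, assignment to the nearest gene and each replicate alone.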

Additional observations from a re-analysis of the deposited data

How the results depend on the processing

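The main counts were 6 ligand-like, 6 patched-related and 12 bound members in all. They stayed within 1.5 times with a narrower window, 1 start per gene, peak midpoints or the nearest gene alone. With 500 bp upstream they were 5, 4 and 9 (17.2% of all genes bound). The most upstream start alone gave 6, 6 and 12 (19.7%), and peak midpoints gave 6, 6 and 12 (21.3%). Counting the nearest gene of each peak gave 5, 6 and 11 (17.8%). In the main window the patched-related share was 23.1%, above the 21.3% of all genes. With 500 bp upstream it was 15.4%, below the 17.2% of all genes. The 500 bp window dropped ptc-1, ptr-2 and wrt-10, and assignment to the nearest gene dropped wrt-10. Without replicate 1 or without replicate 2 the ligand-like count was 6. The patched-related count ran from 6 to 7 and the joint count from 12 to 13. Of all genes 20.8% were bound without replicate 1 and 21.9% without replicate 2. Larger moves came with the strongest 3931 peaks (1, 1 and 2, against 12.4% of all genes). All pooled peaks also moved the counts (17, 12 and 29, against 40.6%), and 2000 bp upstream moved the ligand-like count (10, against 26.7%). These follow from fewer peaks, more peaks and a wider window by construction. The E-box share of 69.2% (43.4% of all start-window peaks) was 84.6% within 100 bp (64.8% of all), 54.5% with 2000 bp upstream (43.4%) and 1 of 2 among the strongest 3931 peaks (45.7%). The GATA share of 23.1% (27.6% of all) was 23.1% within 100 bp (41.1%), 18.2% with 2000 bp upstream (27.7%) and 1 of 2 among the strongest 3931 (27.9%). No paired analysis was possible because the series holds 1 group.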
